A study of Mus musculus with 48 samples.

Results

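The genes described here are the 37 rows whose symbol begins with mt-, of 55487 rows in the table of expression values, so the members were chosen by name and not by any measured value. They comprise 13 protein-coding genes, 2 ribosomal RNA (rRNA) genes and 22 transfer RNA (tRNA) genes, which together are the gene content of the mouse mitochondrial genome. RNA came from the second thoracic mammary gland of mice of 2 models. Each carries MMTV-rtTA, a tetracycline-controlled activator driven by a mouse mammary tumour virus promoter, with either tet-op-Esr1 (estrogen receptor alpha) or tet-op-CYP19A1 (aromatase, which makes estrogens). In each model there were uninduced glands at 12, 18 and 24 months, glands induced for 1 week at 12 or 18 months, for 6 or 12 months at 24 months, and for 18 months at 30 months, which makes 16 groups of 3 and 48 libraries. The uninduced glands carry both transgenes. No group was given the inducing drug without a responder transgene, so a response to the drug and one to the transgene cannot be told apart. The 3 libraries of a group are labelled as biological replicates, with no statement that each came from its own mouse, so a p-value reflects only how much these libraries vary.

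Mitochondrial DNA is a small circle read from both strands into long transcripts, and tRNAs lying between the other genes are cut out to release the mRNAs and rRNAs. Its 13 proteins are subunits of 4 complexes of oxidative phosphorylation: mt-Nd1 to mt-Nd6 and mt-Nd4l of complex I (NADH dehydrogenase), mt-Cytb of complex III, mt-Co1 to mt-Co3 of complex IV (cytochrome c oxidase), and mt-Atp6 and mt-Atp8 of ATP synthase. The 2 rRNAs build the mitochondrial ribosome. Muscle and brown fat are rich in mitochondria, while white fat, which fills much of a resting mammary gland, holds fewer. In bulk tissue, fewer cells of a type and less RNA per cell cannot be told apart.

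Some mitochondrial genes have near-identical copies in nuclear DNA, and the reads behind several values given below can be placed on either. In GENCODE M21 (build mm10), 7 annotated pseudogenes lie in 1 block on the minus strand of chromosome 1 (chr1:24611535-24616197) and copy, in order, parts of mt-Co1, mt-Co2, mt-Atp6, mt-Co3, mt-Nd3, mt-Nd4l and mt-Nd4. Over the aligned stretch the copies of mt-Co2, mt-Atp6, mt-Co3, mt-Nd4l and mt-Nd4 were 100% identical. The start of mt-Nd3 (chrM:9459-9806, plus strand) and of its copy Gm28438 (chr1:24612775-24613119) and the end of mt-Nd4l (chrM:9877-10173, plus strand) and of its copy Gm10222 (chr1:24612407-24612700) are shown because the values of these 2 genes change when gene and copy are summed. The capitals mark the one base that differs in the first pair, T3C counted from 1 at the start of mt-Nd3, and, in the second pair, the closing bases of the gene that lie beyond the end of the annotated Gm10222 and within the neighbouring Gm28439, the copy of mt-Nd4. The sequence of mt-Tl1 (chrM:2676-2750, plus strand), the gene for a leucine tRNA, is shown because it was the one tRNA gene with a value above 0.
mt-Nd3: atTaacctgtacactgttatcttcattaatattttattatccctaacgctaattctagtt
Gm28438: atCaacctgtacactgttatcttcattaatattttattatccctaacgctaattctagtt
mt-Nd4l: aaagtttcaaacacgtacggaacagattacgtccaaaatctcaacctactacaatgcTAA
Gm10222: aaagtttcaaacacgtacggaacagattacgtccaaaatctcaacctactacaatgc
mt-Tl1: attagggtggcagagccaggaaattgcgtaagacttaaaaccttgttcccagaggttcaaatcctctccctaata

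Values are in TPM, a transcript abundance that divides reads by gene length and is scaled to 1 fixed total in every library, so the depth of a library is unknown here. Ribosomal RNA had been depleted from the total RNA before sequencing. In 9 libraries, 7 of them CYP19A1, more than 10% of all TPM lay on 3 rows that hold cytoplasmic rRNA (up to 67.2%), which lowers every other value, and they include all 3 CYP19A1 libraries induced for 1 week at 12 months and 2 of the 3 uninduced CYP19A1 libraries of that age. The sample names at 24 and 30 months are built differently from the names at 12 and 18 months, so age and any difference in handling with that boundary cannot be told apart. White adipocyte markers summed to between 2501 and 10239 TPM and luminal epithelial markers to between 95.8 and 1058 TPM over the 48 libraries, and no gene of either list was at 0 in any library. Skeletal muscle markers, 16 genes, summed to between 205 and 50208 TPM, with a median of 9206 at 12 and 18 months and of 25324 at 24 and 30 months.

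The 2 mitochondrial rRNAs were the most abundant members. mt-Rnr2, the large-subunit 16S rRNA (chrM:1094-2675), was at 41288 TPM in the lowest library, 136820 in the median and 239861 in the highest. mt-Rnr1, the small-subunit 12S rRNA (chrM:70-1024), was at 11343, 28311 and 59621 TPM in turn. Both rRNAs summed to 16.5% of all TPM in the median library, with a range from 5.26% to 29.9%. Because rRNA was depleted, these levels show what was left in the libraries and not the tissue's content. mt-Rnr2 was 4.69 times mt-Rnr1 in the median library (range 3.07 to 6.31).

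Among the mRNAs as deposited, mt-Co1 led with a median of 7409 TPM, followed by mt-Nd1 at 2432, mt-Cytb at 2322, mt-Atp8 at 1824, mt-Nd3 at 1189 and mt-Nd4 at 1015 TPM. mt-Nd2 stood at 820, mt-Atp6 at 771, mt-Nd5 at 412, mt-Co3 at 299, mt-Nd4l at 251, mt-Nd6 at 239 and mt-Co2 at 116 TPM. All 13 were above 1 TPM in all 48 libraries. mt-Co2 and mt-Co3, which encode core subunits of the same enzyme as mt-Co1, thus stood at 1.59% and 4.06% of mt-Co1 in the median library.

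The low place of mt-Co2 and mt-Co3 belonged to the rows named for the mitochondrial genes. The copy of mt-Co3, Gm28437, was listed at a median of 7772 TPM, the copy of mt-Co2, Gm28661, at 5934 TPM, the partial copy of mt-Co1, Gm29216, at 3301 TPM and the copy of mt-Atp6, Gm10925, at 3124 TPM. In each of the 48 libraries the copies of mt-Co2, mt-Co3 and mt-Atp6 held more of the TPM than the mitochondrial rows did. Copies of mitochondrial genes on chromosome 2 that differ at more positions, such as Gm13340 (97.6% identical to mt-Co1) and Gm13341 (97.6% identical to mt-Co2), did not exceed 1.18 and 1.94 TPM. Summed with its copy, each weighted by length, mt-Co2 rose from the last to the third place among the 13 mRNAs with a median of 6011 TPM, and mt-Co3 from the tenth to the second with 8125 TPM, behind mt-Co1 at 8489 TPM. mt-Co3 then stood at 92.9% of mt-Co1 in the median library (range 77.8% to 106%) and mt-Co2 at 71.6% (58.0% to 87.4%). These sums cannot tell RNA of a copy from RNA of the gene, and both the deposited and the summed values are given for each result that depends on the choice.

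All 13 mRNAs together made up 1.96% of TPM in the median library as deposited (0.805% to 4.59%). With the copies added at their listed TPM, here not weighted by length, they made up 4.10% (1.64% to 8.62%). By the latter measure the highest group was uninduced Esr1 at 12 months, with 6.52% ± 2.06 (SD, n = 3), and the lowest was CYP19A1 induced for 1 week at 12 months, with 2.20% ± 0.474 (SD, n = 3), all of whose libraries were among those rich in cytoplasmic rRNA. Uninduced Esr1 at 12 months held the single highest library at 8.62%, beside 6.46% and 4.49%. When the 16 groups were ordered by mean, all 15 pairs of neighbours overlapped in their libraries, for the mRNA share and for the rRNA share alike. The rRNAs and mRNAs moved together: rRNA was 4.00 times the mRNA with copies in the median library, and this ratio stayed between 3.17 and 4.93 while the shares themselves ranged 5.69-fold and 5.26-fold. Both are shares of the same total, and TPM on cytoplasmic rRNA rows lowers both at once, so part of this joint range comes with the scaling. Per 100 TPM of nuclear protein-coding genes, the mRNAs with copies ranged from 8.69 to 29.9 and the rRNAs from 34.9 to 104.

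**Figure D1:**
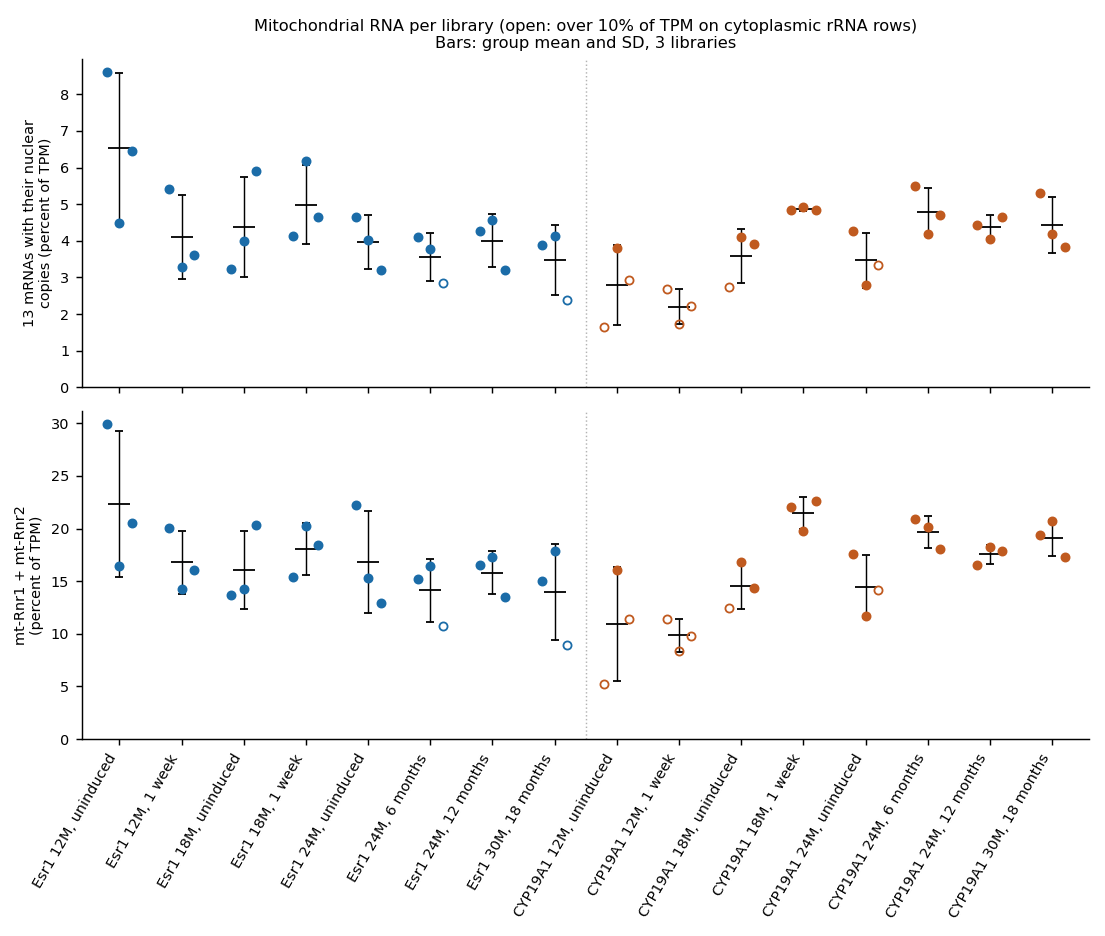
Share of all TPM on the 13 mitochondrial mRNAs with their nuclear copies (upper panel) and on mt-Rnr1 plus mt-Rnr2 (lower panel), in percent, for each library by group; bars give the group mean and SD (n = 3) and open circles mark the 9 libraries with over 10% of TPM on cytoplasmic rRNA rows. The mRNA share, with copies not weighted by length, runs from 1.64% to 8.62%. The lowest group, CYP19A1 induced for 1 week at 12 months, has open circles only.

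The make-up of the mitochondrial mRNA pool differed between the younger and the older libraries. Shares within the pool do not depend on how a library is scaled. They are given here with the copies included, weighted by length, as percent of the 13 mRNAs. mt-Nd2, a complex I subunit, made up a median of 2.87% of the pool over the 24 libraries at 12 and 18 months (1.95% to 3.44%) and 1.87% over the 24 at 24 and 30 months (1.13% to 2.60%). mt-Atp8, a small subunit of ATP synthase, went from 6.19% to 4.34%, mt-Nd4l from 1.47% to 0.948%, mt-Nd4 from 3.35% to 2.45%, mt-Nd5 from 1.36% to 1.02% and mt-Nd6 from 0.866% to 0.560%. The shares of mt-Co3 (19.1% and 22.0%), mt-Co1 (20.9% and 23.3%) and mt-Co2 (15.5% and 16.5%), all of complex IV, were larger in the older libraries, and since shares sum to a whole, a smaller share of some genes goes with a larger share of others. The medians of mt-Atp6 (11.6% and 9.87%) and mt-Cytb (6.50% and 5.77%) were lower in the older libraries, and those of mt-Nd1 (6.14% and 6.49%) and mt-Nd3 (4.76% and 4.86%) slightly higher.

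In uninduced glands alone, the shares of mt-Nd2, mt-Atp8, mt-Atp6, mt-Nd4l and mt-Cytb were lower and those of mt-Co1 and mt-Co3 higher at 24 than at 12 months in both models, without overlap. In CYP19A1 the shares of mt-Nd3, mt-Nd4, mt-Nd5 and mt-Nd6 were also lower and that of mt-Co2 higher at 24 months, without overlap. In Esr1 these shares overlapped, with mt-Nd5 at 1.01% to 1.28% at 12 months and at 0.666% to 1.67% at 24 months. That of mt-Nd1 overlapped in both models. The share of mt-Nd2 was 2.87%, 2.95% and 3.15% in the 3 uninduced Esr1 libraries at 12 months and 1.13%, 1.73% and 2.44% in the 3 at 24 months. In CYP19A1 it was 2.51%, 2.704% and 3.03% at 12 months and 1.33%, 1.93% and 2.14% at 24 months. In neither model did the 2 ages overlap. At 18 months it was 2.58%, 2.59% and 2.695% in Esr1, already below every 12-month library, and 1.95%, 2.995% and 3.08% in CYP19A1, overlapping 12 months. For mt-Atp8 the shares were 5.61%, 5.66% and 7.07% at 12 months and 3.41%, 3.62% and 3.97% at 24 months in CYP19A1, and in Esr1 5.32%, 5.70% and 6.95% at 12 months and 2.28%, 5.13% and 5.31% at 24 months, where the highest older library lay just under the lowest younger one. Esr1 also differed at 18 from 12 months without overlap in mt-Atp6 (11.04% to 11.6% and 11.9% to 12.7%) and mt-Cytb (5.31% to 6.14% and 6.43% to 7.07%), both lower, and in mt-Co1 (20.3% to 21.5% and 18.9% to 20.2%), higher. The share of mt-Co2 was lower at 18 months (15.0% to 15.97%) than at 12 months (15.99% to 16.6%) there, against the direction at 24 and 30 months. These shares were noticed in the data and carry no test. Skeletal muscle markers and the pattern of library names differed between the 12- and 18-month and the 24- and 30-month libraries, and their part was not tested.

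**Figure D2:**
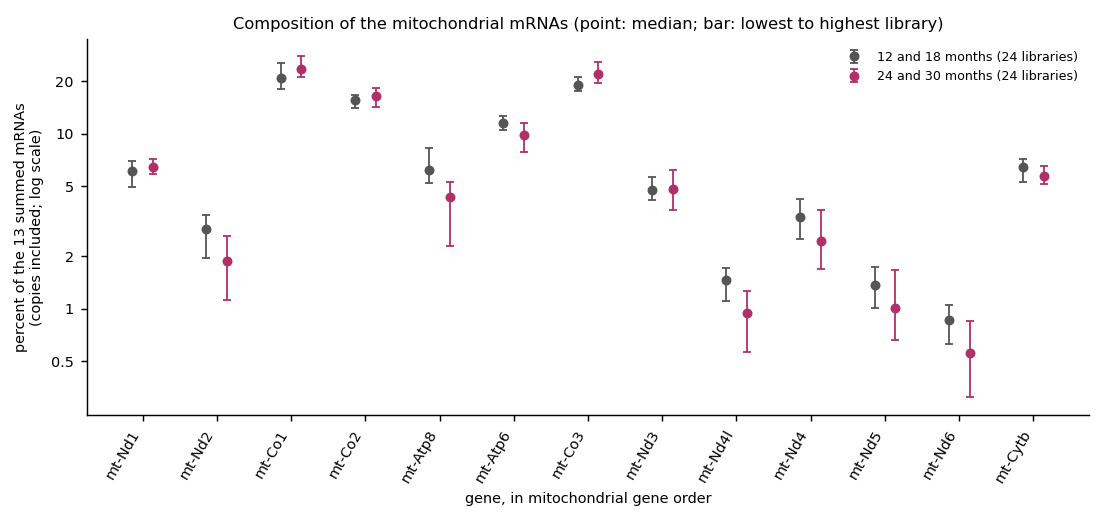
Share of each gene in the 13 summed mitochondrial mRNAs, copies included, in percent on a log axis, in mitochondrial gene order; points are medians and bars run from the lowest to the highest library, for 24 libraries at 12 and 18 months and 24 at 24 and 30 months. The medians of mt-Nd2, mt-Atp8, mt-Atp6, mt-Nd4l, mt-Nd4, mt-Nd5, mt-Nd6 and mt-Cytb sit lower in the older libraries, and those of mt-Co1, mt-Co2, mt-Co3, mt-Nd1 and mt-Nd3 higher.

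mt-Nd6 is the one mRNA read from the other strand (chrM:13552-14070, minus strand), opposite mt-Nd5 and mt-Cytb, its neighbours. It was listed at 57.1% of mt-Nd5 in the median library, with a range from 46.7% to 68.7%. The median was 60.4% at 12 and 18 months and 53.0% at 24 and 30 months, and the ranges overlapped (50.9% to 68.7% and 46.7% to 64.9%). Against mt-Cytb, mt-Nd6 stood at 13.1% in the younger and 9.70% in the older libraries. 2 pairs of genes share 1 mRNA each and have reading frames that overlap. mt-Nd4l was at 39.7% of mt-Nd4 in the younger and 18.1% in the older libraries as deposited, and at 44.0% and 38.9% with the copies. mt-Atp6 was at 51.5% and 31.5% of mt-Atp8 as deposited, but at 182% and 242% with the copies, so the direction of this difference turned with the treatment of the copy.

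The division of TPM between gene and copy itself differed with age for some genes. For mt-Nd4l, the mitochondrial row held between 71.8% and 100% of the sum at 12 and 18 months and at most 65.9% at 24 and 30 months, with no overlap between the 24 and 24 libraries. For mt-Nd3 it held over 90% in 23 of 24 younger libraries and in 1 of 24 older ones, with medians of 98.1% and 40.0%. The exception among the younger ones, at 58.5%, was the uninduced CYP19A1 library with 67.2% of TPM on cytoplasmic rRNA rows. For mt-Atp6 the medians were 27.8% and 13.9%, for mt-Co3 5.89% and 2.68%, and for mt-Co2, in the other direction, 1.33% and 2.28%. For mt-Co1, whose copy is partial, they were alike at 68.2% and 68.4%, and the copy of mt-Nd4, Gm28439, was listed at 0 in all 48 libraries. Read counts per position are not part of these values, so what sets the division was not tested.

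**Figure D3:**
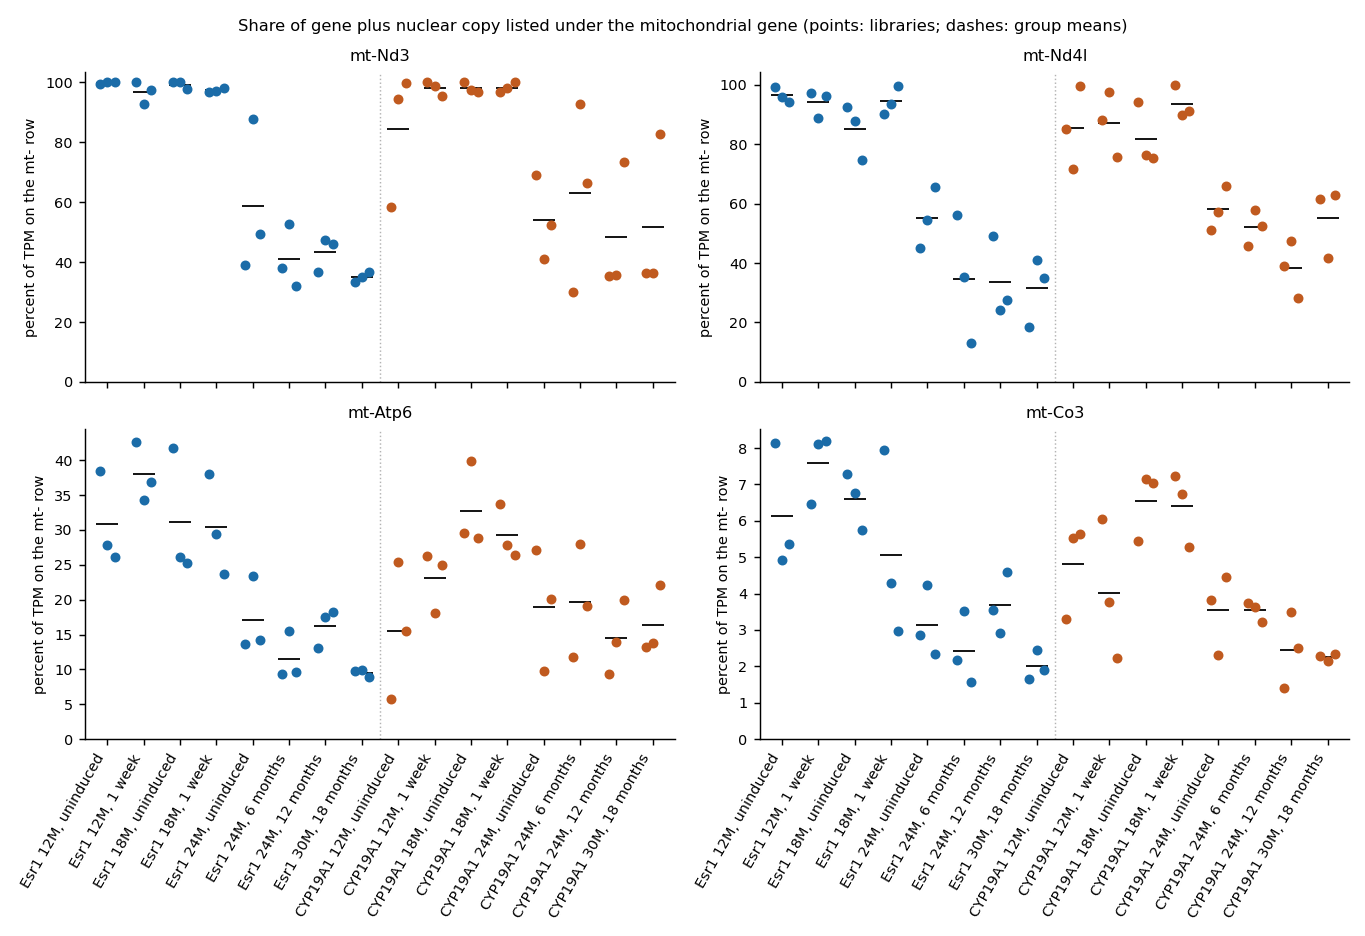
Percent of the TPM of gene plus nuclear copy that was listed under the mitochondrial gene, for mt-Nd3, mt-Nd4l, mt-Atp6 and mt-Co3, with 1 point per library and a dash at each group mean. For mt-Nd4l all libraries at 12 and 18 months lie at or above 71.8% and all those at 24 and 30 months at or below 65.9%.

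Of the 22 tRNA genes, 21 were listed at 0 in all 48 libraries. All 21 are shorter than the 75-base read (59 bases for the shortest). mt-Tl1, printed above, is 75 bases long, the longest of the 22, and was the one with any value above 0. It was above 0 in 5 of 24 libraries at 12 and 18 months and in 23 of 24 at 24 and 30 months. Among those above 0 it reached 155.55 TPM in the younger libraries, in 1 uninduced Esr1 library, and 164.4 TPM in the older ones, and the medians were 54.0 and 51.6 TPM. mt-Tl1 lies between mt-Rnr2 and mt-Nd1 with no gap, and the free tRNA and longer RNA that spans it cannot be told apart in these values. In CYP19A1 it was listed at 0 in all 12 libraries at 12 and 18 months and above 0 in all 12 at 24 and 30 months. TPM divides reads by length, and mt-Tl1 is no longer than a read, so its values can rest on few reads. The number of reads behind them is unknown here.

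For tests, a gene had to reach 1 TPM in 3 or more libraries, which left 20209 genes and 16 of the 37 members: all 13 mRNAs, both rRNAs and mt-Tl1. Each gene was fitted on log2(TPM + 1) with limma over all 48 libraries, and a gene was called at a Benjamini-Hochberg adjusted p under 0.05 over all genes of a comparison. Log2 changes are on that scale, with the standard error (SE) of the fit. Of 19 comparisons, 15 called no member. The pattern over all comparisons is drawn in the plot of log2 changes by gene.

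**Figure D4:**
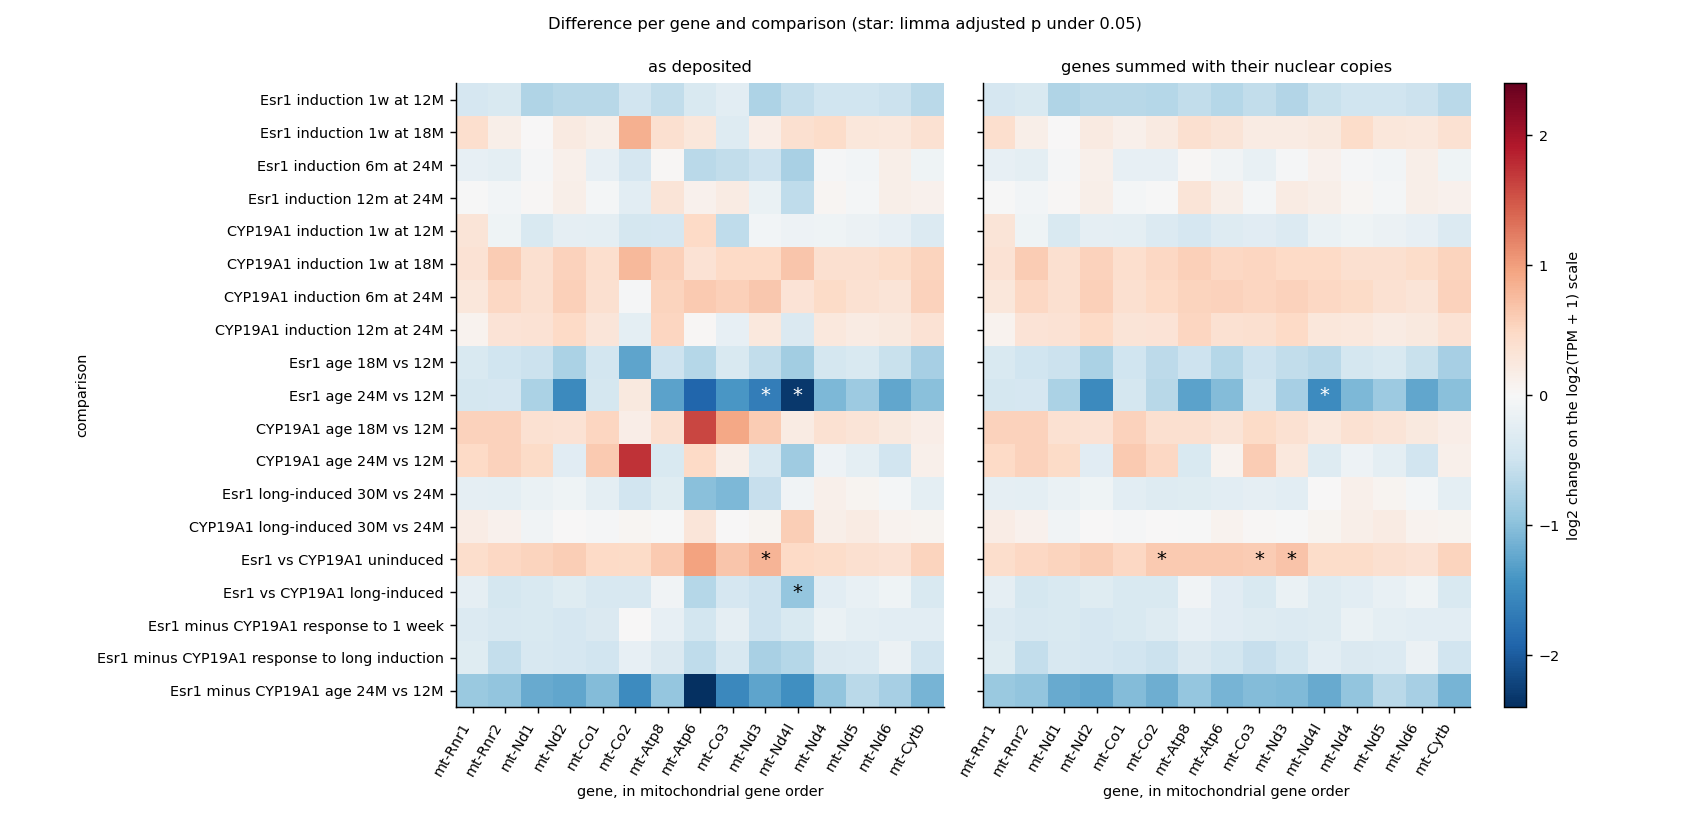
Log2 change of the 13 mRNAs and 2 rRNAs on the log2(TPM + 1) scale in each of 19 comparisons (blue lower, red higher), as deposited on the left and with nuclear copies summed on the right; stars mark a limma adjusted p under 0.05. The row for Esr1 at 24 against 12 months is blue for 14 of 15 genes on the left and for all 15 on the right, with 2 stars and 1 star.

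The first question is how the mitochondrial genes differ with age in uninduced glands. In Esr1, 2 complex I genes fell from 12 to 24 months, mt-Nd4l and mt-Nd3, which is 2 of the 16 members tested, where 0.574% of all genes tested were called and 0.247% were called lower. mt-Nd4l was at 630, 744 and 1096 TPM at 12 months and at 116, 155 and 226 TPM at 24 months, so the ages did not overlap. Its log2 change was -2.32 (SE 0.46, limma adjusted p = 0.00639). mt-Nd3 was at 1990, 3485 and 3971 TPM at 12 months and at 826, 902 and 1192 TPM at 24 months, again without overlap, with a log2 change of -1.65 (SE 0.41, limma adjusted p = 0.0440).

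With each gene summed with its copy, the difference shrank for both and 1 call was left, where 0.554% of all genes were called. mt-Nd4l with Gm10222 was at 656, 790 and 1103 TPM at 12 months and at 211, 235 and 497 TPM at 24 months, a log2 change of -1.51 (SE 0.36, limma adjusted p = 0.0353). mt-Nd3 with Gm28438 was at 1990, 3485 and 3989 TPM and at 1355, 1670 and 2303 TPM, which overlapped, with a log2 change of -0.80 (SE 0.34, limma adjusted p = 0.494). The copy Gm28438 itself, listed at 0, 0 and 17.5 TPM in the 12-month libraries, was higher at 24 months (limma adjusted p = 0.0197). The summed mt-Nd4l kept its call without 24-month replicate 1 and lost it when any one of the other 5 libraries was left out, with adjusted p from 0.0569 to 0.239. As deposited, mt-Nd4l lost its call without 12-month replicate 1 (adjusted p = 0.0612) or 24-month replicate 2 (adjusted p = 0.0606), and mt-Nd3 without any library but 12-month replicate 2, with adjusted p up to 0.245.

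**Figure D5:**
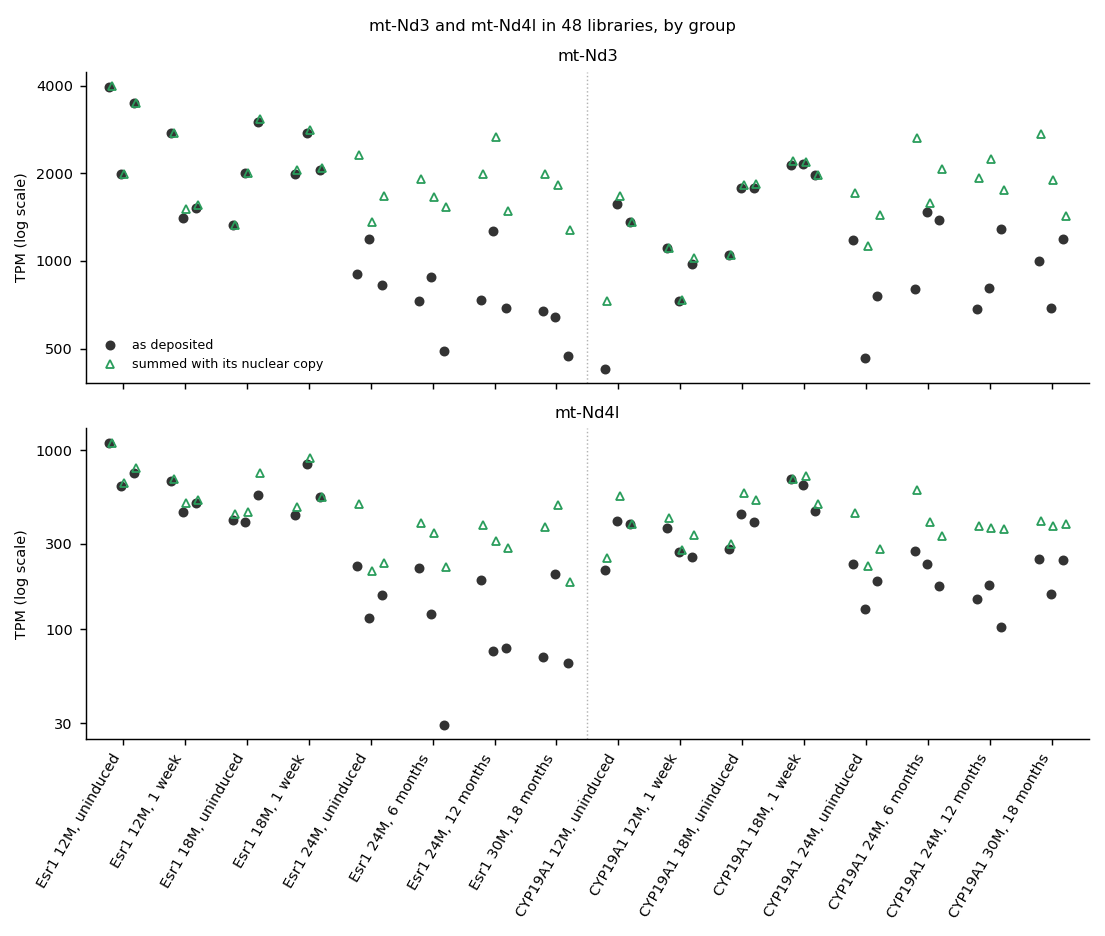
TPM of mt-Nd3 (upper panel) and mt-Nd4l (lower panel) in 48 libraries by group on a log axis, as deposited (filled circles) and summed with the nuclear copy (open triangles). Circle and triangle lie closer together in most libraries at 12 and 18 months than at 24 and 30 months, where mt-Nd4l as deposited reaches its lowest value of 29.25 TPM.

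Most other members also had negative changes in Esr1. From 12 to 24 months 14 of the 16 members had a negative change, with a median log2 change of -1.04 against -0.08 over all genes. With copies, all 13 mRNAs were negative with a median of -1.003, also under each of 3 other scalings of the libraries, where the median lay between -1.02 and -0.88. In 7 of the 16 the 2 ages did not overlap, all 7 lower, where 8.61% of all genes were lower without overlap. The 2 exceptions were mt-Co2, at 0.24 as deposited, and mt-Tl1, the tRNA gene, at 0, 0 and 155.55 TPM at 12 months and 31.81, 40.68 and 151.21 TPM at 24 months. The ages overlapped for mt-Tl1, whose change was positive at an unadjusted p under 0.05 but missed the threshold (limma adjusted p = 0.562). mt-Nd2 went from 1835 ± 551 to 671 ± 353 TPM (SD, n = 3 each), a log2 change of -1.53 that missed the threshold (SE 0.40, limma adjusted p = 0.0767). mt-Rnr2 went from 183285 ± 51532 to 138722 ± 36019 TPM and mt-Rnr1 from 39788 ± 17664 to 29667 ± 12365 TPM, log2 changes of -0.40 (SE 0.31) and -0.42 (SE 0.35) with overlapping libraries (limma adjusted p = 0.910 and 0.928). Brown adipocyte markers summed to 107, 686 and 807 TPM at 12 months and to 166, 358 and 391 TPM at 24 months. Skeletal muscle markers summed to 2462, 15498 and 19117 TPM and to 9653, 22656 and 38977 TPM in turn. None of the 16 muscle, 9 brown or 10 white adipocyte markers was called, and their part in the result was not tested.

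Nuclear genes for mitochondria did not show a like median in this comparison. Of 89 nuclear oxidative phosphorylation subunits tested, none was called and the median log2 change was -0.07. Of 78 mitochondrial ribosomal proteins none was called, with a median of -0.04, and none of 18 genes of mitochondrial transcription and replication (median -0.10), of 29 of mitochondrial RNA processing (-0.12) or of 10 regulators of mitochondrial biogenesis (-0.19).

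In CYP19A1, from 12 to 24 months, mt-Tl1 was the 1 member called, higher at 24 months, where 4.24% of all genes tested were called and 4.18% were called higher. It was listed at 0 in all 3 libraries at 12 months and at 43.3, 82.9 and 88.2 TPM at 24 months (limma adjusted p = 0.0173). Since mt-Tl1 is no longer than a read, these values can rest on few reads. The call was lost when the 9 libraries rich in cytoplasmic rRNA were left out (adjusted p = 0.255), which leaves 1 library at 12 months, under rescaling by the median of gene ratios (0.0792), and without any one of 12-month replicates 1 and 3 or 24-month replicates 1 and 3 (up to 0.0787). Over the 13 mRNAs with copies, 7 changes were positive and 6 negative, with a median of 0.08 against 0.22 over all genes, and the median turned negative under each of the 3 other scalings (-0.22 to -0.50). As deposited, mt-Co2 went from 74.2 ± 75.2 to 173 ± 63.4 TPM (SD, n = 3 each), with overlap (limma adjusted p = 0.112).

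All 16 skeletal muscle markers were called higher at 24 months in CYP19A1, with a median log2 change of 3.98. Acta1, skeletal alpha-actin, rose 18.0-fold, Tnni2, a fast troponin, 17.2-fold, Myh2, a myosin heavy chain, 17.5-fold, and Myh4 16.8-fold (limma adjusted p from 0.00931 to 0.0139). Of 89 nuclear oxidative phosphorylation subunits 15 rose and none fell, with a median log2 change of 0.72. Among them were Cox6a2, the muscle form of a cytochrome c oxidase subunit, 16.5-fold, Atp5g1 3.25-fold, Atp5e 2.66-fold and Ndufb2 2.33-fold (limma adjusted p from 0.00806 to 0.00933). Of 78 mitochondrial ribosomal proteins Mrpl42 (2.13-fold), Mrps24 (1.78-fold) and Mrps23 (1.76-fold) rose, a share near the 4.18% of all genes called higher. Muscle markers summed to 682.5, 1080.5 and 5501 TPM at 12 months and to 20378, 28241 and 31690 TPM at 24 months. None of the 13 mitochondrially encoded mRNAs was called in this comparison. Libraries rich in cytoplasmic rRNA, which lowers their other values, are among those at 12 months. The nuclear and muscle lists were not recomputed under other scalings. For the 13 mRNAs with copies, leaving the cytoplasmic rRNA rows out took the median from 0.08 to -0.50.

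The difference between the models in their change from 12 to 24 months called no member, where 0.0396% of all genes were called. All 16 differences were negative (Esr1 minus CYP19A1), with a median of -1.17 against -0.32 over all genes, and 9 members passed at an unadjusted p under 0.05 in limma, against 6.49% of all genes. The smallest limma adjusted p among the 16 was 0.766. The size depended on scaling: the median of the 13 mRNAs with copies was -1.05 without rescaling. It was -0.54 under rescaling by the median of gene ratios and -0.50 without the cytoplasmic rRNA rows, with all 13 negative each time. From 12 to 18 months without induction no member was called in either model, where 0% (Esr1) and 0.0099% (CYP19A1) of all genes were called. At an unadjusted p under 0.05, 2 members in Esr1 and 1 in CYP19A1 passed, against 2.76% and 5.61% of all genes. In Esr1 all 16 changes were negative, with a median of -0.51 against 0.01 over all genes. All 9 brown adipocyte markers (median -1.46) and all 10 white adipocyte markers (-0.91) were negative there and all 16 muscle markers positive (0.53), none of them called, and their part in the result was not tested. In CYP19A1 the median was 0.36 against 0.18 over all genes, and that of the 13 mRNAs with copies went from 0.36 to -0.05 without the cytoplasmic rRNA rows.

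The second question is how induction of the transgenes bears on these genes. In none of the 8 comparisons of induced with uninduced glands of the same age and model was a member called in limma. For Esr1 induced for 1 week at 12 months, where 0.0099% of all genes were called, 15 of 16 changes were negative with a median of -0.50 against 0.22 over all genes, and 2 passed at an unadjusted p under 0.05, against 5.51% of all genes. The 13 mRNAs with copies had a median of -0.64 that stayed between -0.66 and -0.93 under the other scalings. Muscle markers moved with it, from 2462, 15498 and 19117 TPM in the uninduced to 469, 1280 and 7212 TPM in the induced group. All 9 brown adipocyte markers were lower as well (median log2 change -1.66), and all 12 luminal and 8 basal and myoepithelial markers higher (0.76 and 0.68). None of these was called, and their part in the result was not tested. For Esr1 induced for 1 week at 18 months the median was 0.26, for 6 months -0.20 and for 12 months 0.00, with no member under an unadjusted p of 0.05 and with 0%, 0% and 0.00495% of all genes called. Directions for the 2 longer inductions depended on scaling: the median of the 13 mRNAs with copies went from -0.04 to 0.16 at 6 months without the cytoplasmic rRNA rows, and from 0.10 to -0.02 at 12 months under rescaling by the median of gene ratios.

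In CYP19A1, 1 week at 12 months gave a median of -0.17, and the median of the 13 mRNAs with copies turned from -0.27 to 0.15 under rescaling by the median of gene ratios. Leaving out the uninduced replicate 1, with 67.2% of TPM on cytoplasmic rRNA rows, gave 1 call there, mt-Co3 (lower), with a median change of -0.76 over all genes. With copies summed, the same omission called 12422 of the 20203 genes tested, most of them, and no member. The call is therefore not read as a result about mt-Co3. For 1 week at 18 months all 15 members above 0 had a positive change, with a median of 0.46 against 0.09 over all genes, and 7 of the 16 were higher without overlap, where 2.12% of all genes were. The mRNA share with copies, not weighted by length, was 2.75%, 3.91% and 4.11% in the uninduced and 4.83%, 4.85% and 4.91% in the induced libraries. The uninduced library at 2.75% has 40.3% of TPM on cytoplasmic rRNA rows. Without those rows the median of the 13 mRNAs with copies went from 0.48 to 0.24, and all 13 stayed positive. Muscle markers summed to 2432, 16099 and 25846 TPM in the uninduced and to 9675, 17417 and 32367 TPM in the induced group. All 16 muscle and all 9 brown adipocyte markers had positive changes (medians 0.76 and 0.71), none of them called, and their part was not tested. For 6 and 12 months at 24 months the medians were 0.43 and 0.25, with 3 and 0 members higher without overlap, where 2.2% and 6.78% of all genes were. In these 4 comparisons no member passed at an unadjusted p under 0.05, and 0%, 0%, 0% and 0.0198% of all genes were called. The differences between the models in the response to 1 week and to long induction called no member either, where 0% of all genes were called in each, nor did any member pass at an unadjusted p under 0.05 there.

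From 24 months with 12 months of induction to 30 months with 18 months of induction no member was called in Esr1, where 0.139% of all genes were called and 1 member passed at an unadjusted p under 0.05 (15.9% of all genes did), or in CYP19A1, where 0% were called and none did. In Esr1 the 13 mRNAs with copies had a median of -0.22 against -0.36 over all genes, and it turned to 0.28 under rescaling by the median of gene ratios. The summed mt-Nd4l was at 284, 311 and 380 TPM at 24 months and at 185, 374 and 493 TPM at 30 months in Esr1, and at 364, 369 and 376 TPM and at 375, 386 and 401 TPM in CYP19A1.

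The third question is how the models differ. In uninduced glands, with ages weighted equally, all 16 members were higher in Esr1 than in CYP19A1, with a median log2 difference of 0.52 against 0.10 over all genes, and 1 was called, mt-Nd3, where 2.95% of all genes tested were called and 1.97% were called higher. mt-Nd3 differed by 0.81 (SE 0.23, limma adjusted p = 0.0493), as deposited. With copies 3 were called, where again 2.95% of all genes were: mt-Co3 (0.60, SE 0.17, limma adjusted p = 0.0367), mt-Co2 (0.63, SE 0.18, 0.0433) and mt-Nd3 (0.69, SE 0.20, 0.0454). For the summed mt-Co3 the uninduced Esr1 libraries were at 8061, 11345 and 14792 TPM at 12 months, 5880, 7556 and 10636 at 18 months, and 6718, 8620 and 9504 at 24 months. Those of CYP19A1 were at 2829, 5332 and 6386, at 4960, 6776 and 7407, and at 5726, 6782 and 8768 TPM. The models were separate at 12 months and overlapped at 18 and 24 months, and 2 of the 3 CYP19A1 libraries at 12 months are among those rich in cytoplasmic rRNA. Without the 9 such libraries none was called as deposited (mt-Nd3 0.49, adjusted p = 0.201). Without the cytoplasmic rRNA rows the median of the 13 mRNAs with copies was 0.22 in place of 0.54. With copies, mt-Co3 lost its call without any one of 9 of the 18 libraries (adjusted p up to 0.0958), mt-Co2 and mt-Nd3 without any one of 10 (up to 0.114 and 0.125), and none was called under rescaling by the median of gene ratios. The deposited mt-Nd3 also lost its call without any one of 12 of the 18 libraries, with adjusted p up to 0.124.

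As deposited, nuclear genes for mitochondria leaned the same way between the models. The nuclear lists were not recomputed under other scalings, here or in other comparisons. Uninduced CYP19A1 libraries include some rich in cytoplasmic rRNA, which lowers their other values. For the mitochondrial mRNAs with copies, leaving those rows out took the median from 0.54 to 0.22. Of 78 mitochondrial ribosomal proteins 5 were called higher in Esr1, led by Mrps12 (2.62-fold, limma adjusted p = 3.2e-06) and Mrpl35 (2.25-fold, 5.01e-08), with Mrpl16 (1.57-fold) and Mrps33 (1.51-fold). Of 89 nuclear oxidative phosphorylation subunits 7 were higher, among them Atp5g2 (1.71-fold), Cox7b (1.54-fold), Atp5l (1.51-fold) and Cox7c (1.503-fold), and the list's median log2 difference was 0.37. Mgme1, a nuclease that acts in mitochondrial DNA replication, was 1.39-fold higher, and 1 gene of mitochondrial RNA processing, 1110008L16Rik, 1.72-fold. No muscle, fat or epithelial marker was called, and the median of the 16 muscle markers was 0.79.

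In glands induced for 6, 12 or 18 months all 16 members stood lower in Esr1 than in CYP19A1, with a median of -0.38 against -0.12 over all genes. Of the 13 mRNAs with copies, 2 turned positive under rescaling by the median of gene ratios and 4 without the cytoplasmic rRNA rows. mt-Nd4l alone was called, at -0.93 (SE 0.27, limma adjusted p = 0.0383), where 4.15% of all genes tested were called and 2.97% were called lower. It was at 29.25, 122 and 221 TPM after 6 months, 75.8, 78.7 and 188 TPM after 12 months and 64.9, 69.7 and 204 TPM after 18 months in Esr1. In CYP19A1 it was at 175, 231 and 274, at 104, 148 and 176, and at 157, 243 and 247 TPM. The groups overlap at 6 months and at 12 and 18 months alike. Summed with Gm10222, mt-Nd4l differed by -0.30 (SE 0.21, limma adjusted p = 0.477) and no member was called, where 4.15% of all genes were. The call as deposited was also lost without the Esr1 library at 29.25 TPM, which has 33.4% of TPM on cytoplasmic rRNA rows (adjusted p = 0.147), and without any one of 10 others of the 18 libraries.

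Here 7 of 89 nuclear oxidative phosphorylation subunits were lower in Esr1 and none higher, among them Sdhb and Sdha of complex II (0.663-fold and 0.681-fold, limma adjusted p = 0.0266 and 0.0344) and Uqcrc1 of complex III (0.678-fold, limma adjusted p = 0.0496). Complex II has no mitochondrially encoded subunit. Among mitochondrial ribosomal proteins Mrpl15 (0.637-fold) and Mrps11 (0.684-fold) were lower and Mrps12 (1.85-fold) and Mrpl35 (1.46-fold) higher. Tfb1m, which modifies the 12S rRNA, was lower (0.712-fold, limma adjusted p = 0.0292). The brown fat genes Ucp1, the uncoupling protein, and Kcnk3 were lower as well (0.0973-fold and 0.546-fold, limma adjusted p = 0.0162 and 0.0112), 2 of 9 brown adipocyte markers called with all 9 negative. The summed level of the 9 was 165 to 525 TPM in the 9 Esr1 and 325 to 711 TPM in the 9 CYP19A1 libraries, and its part in the result was not tested. No muscle marker was called, with a median of -0.42.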

How the data were processed

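The submitters deposited 1 table of TPM for 48 libraries; per the labels, rRNA-depleted stranded total RNA was read as single ends of 75 bp on a NextSeq 550. The submitters' processing notes name alignment with STAR 2.7.9a, quantification with RSEM 1.3.1, trimming with Trim Galore 0.6.5, FastQC 0.11.9 and the build mm10; how reads matching several genes were divided is not given in the sources used here. The 20209 genes reaching 1 TPM in 3 or more libraries were fitted on log2(TPM + 1) with limma 3.58.1 in R 4.3.3 (1 mean per group, intensity trend, two-sided, Benjamini-Hochberg), and the fit was tested on simulated data. Copies were found by shared 75-base windows between GENCODE M21 transcripts. Those on chromosome 1 with at least 100 shared windows were added to the gene, weighted by length. In shares of all TPM, and in the ratio of rRNA to mRNA, copies were added as listed, without that weight. All mt- rows are accounted for; nuclear genes are named when called in a comparison that also calls an mt- gene, up to 4 a list, largest change first, and 1 gene that this rule names is not reported here. Folds are on the log2(TPM + 1) scale. Members and lists were chosen with earlier results of these data known. The labels number replicates 1 to 3 in each group; same-numbered libraries deviated together in all 3 pairs in 1 comparison, CYP19A1 at 30 against 24 months (correlations 0.106 to 0.251), where blocking on the number left the count of calls at 0. No 2 libraries held identical values. TPM keep no depth, so no counting interval is given.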

Additional observations from a re-analysis of the deposited data

How the results depend on the processing

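Counts of called mt- genes were recomputed with a pseudocount of 0.1, without the filter, under median-of-ratios rescaling, scaled to the nuclear protein-coding total, with replicate number as a block, with the compared groups alone, without the 9 libraries rich in cytoplasmic rRNA, and leaving out each library; sums with nuclear copies, alone and with median-of-ratios rescaling, were added after seeing the data. No direction was reversed for a called gene. In 14 of 19 comparisons the count was 0 throughout; comparisons with CYP19A1 induced for 1 week at 12 months have no value without the 9 libraries, and CYP19A1 uninduced at 12 months then keeps 1 library, assumed to vary like the other groups. Esr1 at 24 against 12 months called 2 genes, but 1 with the replicate block (mt-Nd3 then at adjusted p = 0.0516), 0 with the groups alone, 5 without the 9 libraries, none of which belongs to these groups (mt-Atp6, mt-Atp8, mt-Nd2, mt-Nd3, mt-Nd4l), 1 with copies, 0 with copies and rescaling, and 0 to 4 with a library left out. CYP19A1 at 24 against 12 months called 1, but 0 under median-of-ratios rescaling, 0 without the 9 libraries, 0 with copies and rescaling, and 0 to 3 with a library left out. Esr1 against CYP19A1 uninduced called 1, but 0 with pseudocount 0.1, 0 without the filter, 2 under median-of-ratios rescaling, 0 under protein-coding scaling, 0 with the replicate block, 0 with the groups alone, 0 without the 9 libraries, 3 with copies, 0 with copies and rescaling, and 0 to 6 with a library left out. Esr1 against CYP19A1 long-induced called 1, but 0 without the filter, 0 under median-of-ratios rescaling, 0 with the groups alone, 0 without the 9 libraries, 0 with copies, 0 with copies and rescaling, and 0 to 1 with a library left out. CYP19A1 induced for 1 week at 12 months called 0, and 0 to 1 with a library left out. With copies, leaving out a library gave 0 to 8 calls for Esr1 against CYP19A1 uninduced. The cause of these changes was not tested. The replicate block changed no other count. The median mRNA share, 1.96% of TPM, was 4.10% with copies not weighted by length and 6.28 per 100 TPM of nuclear protein-coding genes. The rRNA share, 16.5%, was 52.2 by the latter. Leaving out any library kept the mRNA share at 1.95% to 1.97% and the rRNA share at 16.5%. The depth of each library is unknown, and tRNAs shorter than the read cannot be judged.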

Other observations

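The mitochondrial ribosomal protein genes Mrps12 and Mrpl35 were higher in Esr1 than in CYP19A1 both in uninduced glands (2.62-fold and 2.25-fold) and in glands induced for 6, 12 or 18 months (1.85-fold and 1.46-fold; limma adjusted p = 0.00267 and 0.00918). The 2 comparisons share no library. In the long-induced glands 71 of the 78 genes of that list had a negative difference, with a median log2 difference of -0.22. The other 7, these 2 among them, had a positive one. They were chosen after their values were seen.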
